A study of Mus musculus with 7 samples.

Results

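Messenger RNA of 9 transcription factors of the myeloid lineage was followed across neutrophils, monocytes, macrophages and dendritic cells of the mouse heart after myocardial infarction. The genes were taken by symbol (Spi1, Cebpb, Cebpd, Cebpe, Irf8, Maf, Klf2, Klf4 and Nr4a1), out of 27998 genes in the matrices of the CD45+ libraries and 31053 in those of the 2 hashed pools. Of these, 8 were in all 7 matrices. Cebpd was in 2 of 7, the pools, and was not analysed here in the CD45+ libraries. All mice were C57BL6/J with no engineered allele named in the labels, and infarction was made by permanent ligation of the left coronary artery. CD45+ heart leukocytes of male mice were sequenced as separate libraries at steady state without infarction (5 mice), on day 1, day 3 and day 5 after infarction (5 mice each) and on day 7 (3 mice), with a step that lowered neutrophil numbers before the sort. A pool of CD11b+ heart cells of male mice carried 1 hashtag antibody for each of day 1 (5 mice), day 3 (5 mice) and day 5 (3 mice). In both heart experiments the tissue was digested with enzymes at 37 °C and cells reached by an intravenous CD45.2 antibody were left out. A pool of CD11b+ cells from blood and heart of mice aged 8 to 10 weeks carried 7 hashtags for mice without surgery (3 mice), 1 or 3 days after sham surgery (3 mice each) and 1 or 3 days after infarction (5 mice each). Its heart tissue was broken up mechanically, and neutrophils and other cells were brought to about equal numbers. No pairing of those 7 hashtags with tissue or condition was at hand, so they are given as 7 unassigned samples. The mice of a time point were pooled, so each time point had 1 sum of cells per experiment. With the experiment as a term, a p-value measures how far the day changes differ between the 2 heart experiments, with spread shared over genes. It does not measure the spread between mice.

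Myeloid cells take their identity from a small set of DNA-binding proteins. PU.1, the product of Spi1, opens enhancers in all of them, C/EBP proteins drive granulocyte and inflammatory genes, and IRF8 favours monocytes and dendritic cells over granulocytes. C/EBPε is known for switching on secondary granule genes in maturing neutrophils of the bone marrow. c-MAF marks differentiated macrophages, KLF2 and KLF4 are zinc finger proteins that restrain inflammatory activation and favour monocyte fates, and NR4A1 is an orphan nuclear receptor that Ly6C-low patrolling monocytes need. Nr4a1, Klf2 and Klf4 are also known as genes that respond within minutes to stimulation, including warm enzymatic digestion of tissue.

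RefSeq promoter sequences (GRCm38.p6) were at hand for 5 of the 9 genes. The 250 bases before the start are shown for 4 of them, whose RNA differed together between monocytes of low and high surface Ly6C. Capitals mark the letters TGACG, the core of the element bound by CREB and ATF proteins, on either strand, and the core of the MEF2 element, CTA and TAG with 4 bases of any kind between them. The windows are chr15:101266596-101266845 for Nr4a1, chr8:72318812-72319061 for Klf2, chr4:55532476-55532725 (minus strand) for Klf4 and chr2:167688665-167688914 for Cebpb. They end at the start of a RefSeq transcript, which for Nr4a1 lies inside the longer gene of the GENCODE annotation and for Klf2 just after its start.
Nr4a1: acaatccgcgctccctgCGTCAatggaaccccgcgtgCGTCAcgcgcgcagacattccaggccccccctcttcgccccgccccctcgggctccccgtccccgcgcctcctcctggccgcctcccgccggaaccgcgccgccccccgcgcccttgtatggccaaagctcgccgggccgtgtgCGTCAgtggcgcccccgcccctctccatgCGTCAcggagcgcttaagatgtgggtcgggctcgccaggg
Klf2: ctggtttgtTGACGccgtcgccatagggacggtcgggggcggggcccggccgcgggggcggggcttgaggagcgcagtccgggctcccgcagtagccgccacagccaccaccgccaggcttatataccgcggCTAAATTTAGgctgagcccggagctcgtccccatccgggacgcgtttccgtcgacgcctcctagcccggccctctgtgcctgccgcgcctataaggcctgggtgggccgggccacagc
Klf4: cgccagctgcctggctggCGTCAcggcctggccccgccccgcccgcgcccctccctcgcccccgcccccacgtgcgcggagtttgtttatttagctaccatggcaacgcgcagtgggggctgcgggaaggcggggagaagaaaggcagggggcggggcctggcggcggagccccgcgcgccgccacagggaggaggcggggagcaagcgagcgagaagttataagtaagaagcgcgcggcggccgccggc
Cebpb: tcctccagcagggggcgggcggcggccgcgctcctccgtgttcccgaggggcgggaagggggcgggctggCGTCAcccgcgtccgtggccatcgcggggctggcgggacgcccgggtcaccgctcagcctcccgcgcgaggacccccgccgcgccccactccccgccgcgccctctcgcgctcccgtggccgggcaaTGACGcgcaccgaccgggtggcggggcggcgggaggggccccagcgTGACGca
TGACG stood in 4 places of the Nr4a1 window, beginning 233, 213, 69 and 40 bases before the start, and in 3 places of the Cebpb window, 180, 53 and 7 bases before it. The Klf2 and Klf4 windows held 1 such place each, and the Klf2 window 1 MEF2 core, which began 118 bases before the start and overlapped no TGACG. Over all 32851 RefSeq promoter windows of this length, 17.8% held TGACG on either strand and 3.20% held the MEF2 core. Both Irf8 windows held neither. A further motif, GAGGAAGT of the PU.1 type, stood in 2.44% of all windows and in none of the 5 genes' windows, and the CArG box stood in 1.47% and in none of them. These matches describe letters only.

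The deposited barcodes held 3737297 to 11587754 UMIs (unique molecular identifiers, 1 per counted transcript) per CD45+ library and 107694968 and 88899576 in the pools. Filtering left 522 to 1793 cells per CD45+ library, 4282 in the heart pool and 9999 in the blood and heart pool. Cells were clustered without the 9 genes, and clusters were named from marker lists, so class names below stand for neutrophil-like, monocyte-like, macrophage-like and dendritic-cell-like cells. Levels are given as CPM, a gene's UMIs in a class scaled to the same total of UMIs in every sum, over sums of at least 30 cells. They come from 3' ends and are compared between samples and classes of 1 gene, not between genes. CPM is a share of a class's UMIs, not an amount per cell, and neutrophils held fewer UMIs per cell. On day 3 of the heart pool 994 neutrophils held 4059931 UMIs, with 1909 of Spi1 and 3579 of Klf2. The 1066 monocytes/macrophages held 34692154, with 11229 and 5979. A class higher in CPM can therefore hold fewer UMIs of a gene per cell. Surface Ly6G followed the neutrophil name, with cluster medians of 308 and 332 antibody UMIs in the neutrophil clusters of the heart pool against 94 to 121 in its other clusters. In the blood and heart pool the medians were 18 to 22 in neutrophil clusters and 0 or 1 in monocyte and macrophage clusters, except a cluster of 107 monocytes at 23. The dendritic cell cluster of the heart pool also had Gzma and Igkc among its leading genes. Pairs of CD45+ libraries shared 0 to 2 barcodes.

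**Figure D1:**
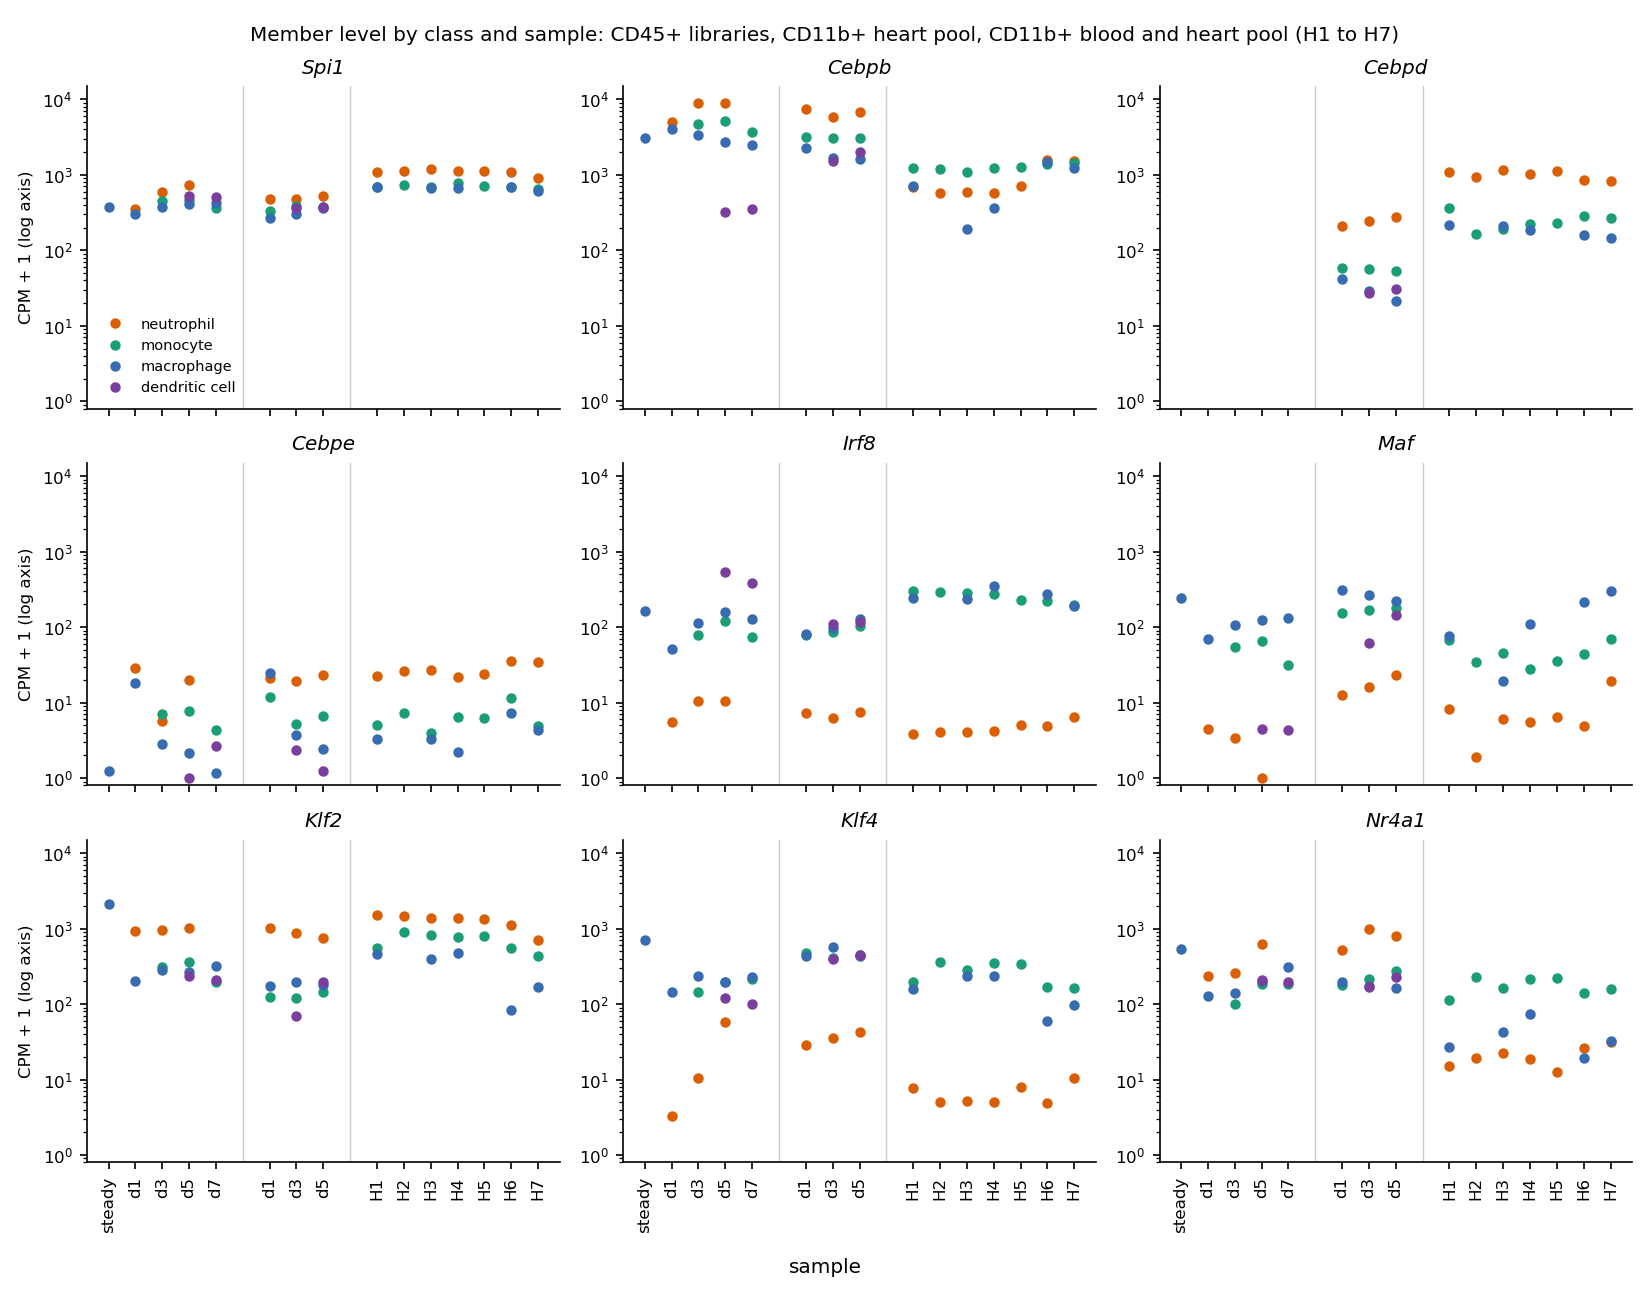
Level of each of the 9 genes (CPM + 1, log axis) in every sum of at least 30 cells, by sample on the x axis (CD45+ libraries, CD11b+ heart pool, then H1 to H7 for the hashtags of the pool from blood and heart) and by class in colour. Neutrophils (orange) lie below the sum of monocytes and macrophages (not drawn) for Irf8, Maf and Klf4 in 13 of 13 samples with both, and above that sum for Spi1, Klf2 and Cebpe in 13 of 13.

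Spi1, which encodes PU.1, was found in every myeloid class. Neutrophils of the CD45+ libraries had 351, 583 and 726 CPM on days 1, 3 and 5, and those of the heart pool 481, 470 and 524. In monocytes and macrophages together it was 313, 422 and 420 CPM in the CD45+ libraries and 290, 324 and 361 in the heart pool, with 416 on day 7 and 378 at steady state. In the blood and heart pool neutrophils ranged from 907 to 1195 CPM (median 1112) and monocytes/macrophages from 626 to 758 (median 692). Neutrophils were the higher class in 13 of 13 samples, by 1.12 to 1.73 times, and the 95% Poisson intervals, which cover counting error only, were apart in 12. That order is against monocytes and macrophages summed. Monocytes of low surface Ly6C in the blood and heart pool (split described below) had 759 to 1088 CPM, which overlaps the neutrophil range there, and those of high Ly6C 521 to 656. Dendritic cells exceeded monocytes/macrophages in 4 of 4 samples, by 1.03 to 1.24 times. The T cells of day 7, which do not need PU.1, had 24.0 CPM and the B cells 110 CPM. Thinned to 2000 UMIs per cell to remove differences in depth, 55.2% of CD45+ neutrophils had a Spi1 UMI (71.6% without thinning, median 2995 UMIs), against 4.96% of T cells (11.3% without thinning, median 3608 UMIs), so the neutrophil share lay well above that of a class that lacks PU.1.

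Cebpb encodes the C/EBP factor of inflammatory and emergency myelopoiesis, and its level in neutrophils differed between the experiments. Neutrophils had 5015, 8886 and 8797 CPM on days 1, 3 and 5 in the CD45+ libraries and 7364, 5866 and 6760 in the heart pool. In the blood and heart pool neutrophils ranged from 574 to 1591 CPM (median 681), so no sample of that pool reached a heart experiment. Dissociation and sort differ between these experiments and cannot be told apart, and that pool mixes blood cells with heart cells. The part of each was not tested. Monocytes/macrophages had 4123, 4232 and 3216 CPM on days 1, 3 and 5 in the CD45+ libraries, then 2612 on day 7, and 3111 at steady state. In the heart pool they had 2579, 2096 and 1764 CPM, each below every CD45+ value of those days. Monocytes exceeded macrophages in 10 of 11 samples with both, by a median of 1.72 times. Within heart pool macrophages, the cluster with Marco and Igf1 among its leading genes (181 cells) had 427 CPM against 1739 in the largest cluster, which was led by Gpnmb.

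Cebpd encodes C/EBPδ, a partner of C/EBPβ in acute phase responses, and was a gene of neutrophils in both pools. Heart pool neutrophils had 209, 246 and 276 CPM on days 1, 3 and 5, and monocytes/macrophages 46.5, 35.5 and 23.6. In the blood and heart pool neutrophils ranged from 836 to 1140 CPM (median 1029) and monocytes/macrophages from 163 to 344 (median 211). The classes did not overlap within either pool, and neutrophils were the higher class in 10 of 10 samples, by a median of 4.77 times. Cells with a Cebpd UMI after thinning made up 27.8% of neutrophils in the heart pool and 81.7% in the blood and heart pool (41.3% and 91.5% without thinning, median 3902 and 3462 UMIs), against 3.39% of the latter's T cells (11.9% without thinning, median 7658 UMIs).

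Cebpe RNA was low in all classes, with 2 patterns. The first was by neutrophil cluster. In the blood and heart pool the cluster led by the granule genes Camp, Ngp and Ltf (115 cells) had 82.9 CPM against 23.0 CPM in the largest neutrophil cluster (4211 cells). In the CD45+ libraries the cluster led by Ngp and Camp had 36.0 CPM and the other neutrophil cluster 8.07, but 211 of the 215 cells of the first were from day 1 and 5 of the 211 cells of the second, so cluster and day cannot be told apart there. The second pattern was by day in monocytes/macrophages. Their level was 17.1 CPM on day 1 (40 UMIs, 95% Poisson interval 12.2 to 23.3), 4.42 on day 3 (32 UMIs, 3.02 to 6.24) and 2.26 on day 5 (15 UMIs, 1.26 to 3.72) in the CD45+ libraries. In the heart pool it was 19.4 CPM on day 1 (102 UMIs, 15.9 to 23.6), 3.14 on day 3 (109 UMIs, 2.58 to 3.79) and 1.81 on day 5 (72 UMIs, 1.42 to 2.28). Both day 1 values lay above all 4 values of days 3 and 5, with intervals apart. Day 7 had 3 UMIs and steady state 1 UMI (0.467 and 0.259 CPM).

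Cebpe fell in monocytes/macrophages from day 1 to day 3 by 2.57 on the log2 scale (SE 0.28, edgeR quasi-likelihood test on summed counts, Benjamini-Hochberg adjusted p = 0.0407), and from day 1 to day 5 it fell by 3.46 (SE 0.30, adjusted p = 0.00594). Lower values on the later day were seen in 2 of 2 experiments for each contrast. On day 3 the call was lost without either day 3 sum (adjusted p = 0.533 without the heart pool and 0.164 without the CD45+ library), while on day 5 it was made in all 6 fits that left out 1 sum. The day 3 call was also lost with total counts (-2.34, adjusted p = 0.0669). The class was made of different clusters on each day. In the CD45+ libraries 94.7% of it was the cluster led by Saa3 and Il6 on day 1, 56.2% the monocytes led by Plac8 and 30.7% the macrophages led by Gpnmb on day 3, and 71.5% the latter on day 5. In the heart pool 50.7% was the cluster led by Il6 and Ccl24 and 42.2% the monocytes led by Ear2 on day 1, and 60.5% the macrophages led by Gpnmb on day 5. The change of day 5 against day 3, -0.89 (SE 0.29), did not pass (adjusted p = 0.537).

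RNA of neutrophils moved in the same direction in these cells. The summed level of 17 neutrophil markers in monocytes/macrophages was 33080, 3420 and 741 CPM on days 1, 3 and 5 in the CD45+ libraries and 6271, 1296 and 895 in the heart pool, with Siglecf at 0 on day 1 and Ly6g at 0 on day 5 in the CD45+ libraries. That was 15.2% and 5.69% of the neutrophils' own level on day 1, when Cebpe in monocytes/macrophages stood at 62.0% and 94.99% of the neutrophils' level. Without cells that held any UMI of Csf3r, Cxcr2, Retnlg, Il1r2, Ly6g or Mrgpra2b, a check added after the values were seen, the heart pool kept 76 of 223 cells on day 1 at 21.7 CPM of Cebpe, 316 of 1066 on day 3 at 3.398 and 406 of 1241 on day 5 at 1.49. The day 1 value rests on 35 UMIs. In the CD45+ library of day 1, 2 of 246 cells lacked them, with 0 UMIs of Cebpe, and the part of neutrophil RNA in the change was not tested.

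**Figure D2:**
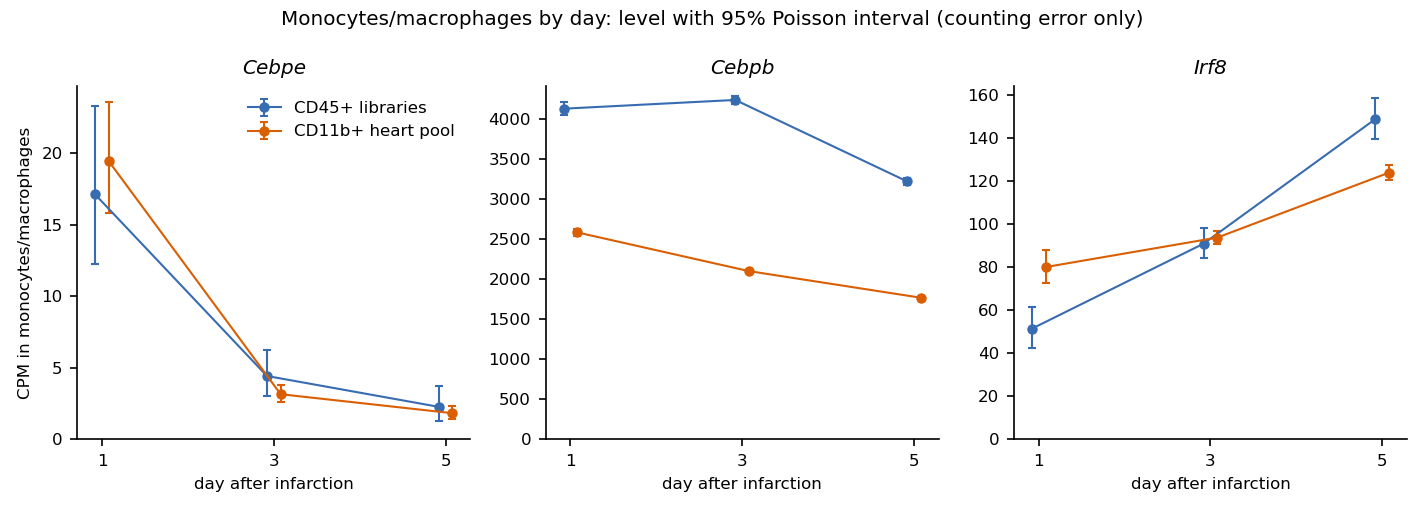
Level of Cebpe, Cebpb and Irf8 in monocytes/macrophages (CPM) against day after infarction in the CD45+ libraries (blue) and the heart pool (orange), with 95% Poisson intervals for counting error. Cebpe is 17.1 and 19.4 CPM on day 1 and at most 4.42 later, and Irf8 is 51.4 and 80.1 CPM on day 1 against 149 and 124 on day 5.

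Irf8, which encodes a factor of monocyte and type 1 dendritic cell development, was nearly absent from neutrophils. They had 4.60, 9.45 and 9.55 CPM on days 1, 3 and 5 in the CD45+ libraries, 6.23, 5.17 and 6.60 in the heart pool, and 2.80 to 5.53 (median 3.22) in the blood and heart pool. Monocytes/macrophages had 51.4, 91.0 and 149 CPM in the CD45+ libraries, with 123 on day 7 and 163 at steady state, 80.1, 93.8 and 124 in the heart pool, and 194 to 301 (median 277) in the blood and heart pool. Neutrophils were lower in 13 of 13 samples, by a median of 35.1 times, with the intervals apart in each. Dendritic cells of the CD45+ libraries had 532 CPM on day 5 and 384 on day 7, against 149 and 123 in monocytes/macrophages of the same days. The larger of their 2 clusters (132 cells) also had the plasmacytoid genes Siglech, Ccr9 and Klk1 among its leading genes, and at a finer resolution 10 plasmacytoid cells stood apart. The cluster named dendritic in the heart pool had 110 and 117 CPM on days 3 and 5, close to 93.8 and 124 in monocytes/macrophages. Natural killer or innate lymphoid cells of the CD45+ libraries had 1200 CPM (91 cells).

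The day 5 level of Irf8 in monocytes/macrophages was above that of day 1 in both experiments, with a fitted log2 change of 0.81 (SE 0.23) that did not pass (adjusted p = 0.0778). It passed in DESeq2 (adjusted p = 0.0365), with no filter on low counts (0.0273) and with classes from each cell's own markers (0.0494), but not in the other 5 settings, of which the fit without the experiment term gave 0.440. Without the CD45+ day 1 sum the adjusted p was 0.0210 with a log2 change of 0.56, and without the heart pool day 1 sum 0.000146 with 1.18, while the 4 fits without another sum gave adjusted p = 0.134 to 0.4999.

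Maf, which encodes c-MAF, was higher in macrophages than in the other myeloid classes in most samples. It was not particular to them, since T cells of the CD45+ libraries had 79.2 CPM on day 7, above every monocyte sum of those libraries. Macrophages of the CD45+ libraries had 67.7, 106, 124 and 131 CPM on days 1, 3, 5 and 7 and 242 at steady state, and those of the heart pool 305, 264 and 224 on days 1, 3 and 5. Monocytes had 53.9, 64.7 and 30.4 CPM on days 3, 5 and 7 in the CD45+ libraries and 154, 170 and 177 in the heart pool. Macrophages exceeded monocytes in 10 of 11 samples, by a median of 1.96 times, with the intervals apart in 9. Neutrophils had 0 to 22.0 CPM over all 13 samples and were lower than monocytes/macrophages in each. The order of the days was opposite in the 2 experiments, and the fitted log2 change from day 1 to day 5 was 0.02 (SE 0.24, adjusted p = 0.962). The highest level of any cluster was 433 CPM in the heart pool macrophages of the Marco and Igf1 cluster, which had the low Cebpb level given above, 107 CPM of Klf4 and 46.9 CPM of Nr4a1, against 542 and 165 CPM in the cluster led by Gpnmb.

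Klf2 keeps T cells, monocytes and endothelium quiescent, and its RNA was high in neutrophils. They had 916, 968 and 1013 CPM on days 1, 3 and 5 in the CD45+ libraries, 1031, 882 and 759 in the heart pool and 710 to 1489 (median 1377) in the blood and heart pool. Monocytes/macrophages after infarction had 201, 300 and 285 CPM in the CD45+ libraries and 154, 172 and 176 in the heart pool, and 265 to 870 (median 745) in the blood and heart pool. Neutrophils were the higher class in 13 of 13 samples, by a median of 3.23 times, with the intervals apart in each. That order is against monocytes and macrophages summed, and steady state, with 7 neutrophils, is not in it. Steady state macrophages had 2097 CPM, above every neutrophil sum. Monocytes of low surface Ly6C in the blood and heart pool (split described below) had 506 to 1390 CPM, which overlaps the neutrophil range there. T cells of the blood and heart pool (59 cells) had 1205 CPM. Klf4, a relative that monocytes need, had the opposite order. Neutrophils had 2.30, 9.45 and 57.3 CPM in the CD45+ libraries (2, 4 and 6 UMIs), 27.6, 34.7 and 41.8 in the heart pool and 3.93 to 9.47 (median 4.22) in the blood and heart pool. Monocytes/macrophages had 141, 178 and 197 CPM in the CD45+ libraries, 444, 521 and 431 in the heart pool and 106 to 354 (median 278) in the blood and heart pool, above neutrophils in 13 of 13 samples.

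Macrophages of the uninjured heart stood apart for Klf2, Klf4 and Nr4a1. At steady state their Klf2 level was 2097 CPM (95% Poisson interval 2052 to 2144), and on days 1, 3, 5 and 7 it was 203, 282, 267 and 320. Klf4 was 704 CPM at steady state and 144, 234, 198 and 228 on those days. Nr4a1 was 535 CPM at steady state and 126, 137, 203 and 310. No day reached the steady state level of any of the 3 genes, and for Nr4a1 the days 5 and 7 lay above days 1 and 3. There was 1 library for steady state and for day 7, so this difference has no replicate check and no test. Most steady state macrophages (97.1%) were in the cluster led by Lyve1, Mgl2 and Cbr2, which held 17.6% of those of day 7. Within that cluster, Klf2 was 2170 CPM at steady state (508 cells) and 879 on day 7 (89 cells), Klf4 719 and 449, Nr4a1 543 and 424, Maf 251 and 265 and Spi1 380 and 474. The summed level of 16 immediate early and heat shock genes, among them Fos and Hspa1a, was 24162 CPM in steady state monocytes/macrophages against 6086 to 8424 on the 4 days, and 24496 against 12081 in the shared cluster. Its part in the Klf2, Klf4 and Nr4a1 levels was not tested.

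**Figure D3:**
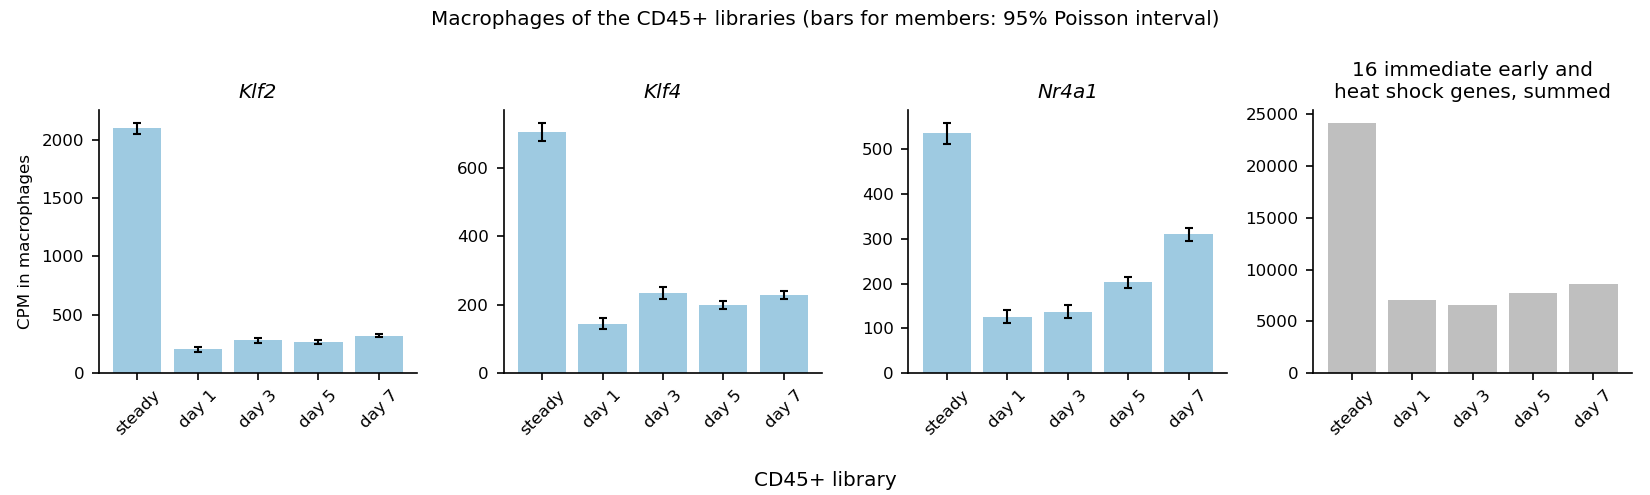
Level of Klf2, Klf4 and Nr4a1 and the summed level of 16 immediate early and heat shock genes (CPM, bars from 0) in macrophages of the 5 CD45+ libraries, with 95% Poisson intervals for the 3 members. Steady state is the highest library in each panel, at 2097, 704 and 535 CPM for the members. On day 1, 98.7% of the cells are in the cluster led by Saa3 and Il6, whose macrophage name depends on the amount added in ranking.

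Nr4a1 in neutrophils depended on the experiment. It was 237, 255 and 630 CPM on days 1, 3 and 5 in the CD45+ libraries and 524, 982 and 793 in the heart pool, but 11.7 to 30.0 (median 18.3) in the blood and heart pool. The blood and heart pool lay below both heart experiments, whose ranges overlapped. After thinning, 62.7% of heart pool neutrophils had a Nr4a1 UMI and 3.41% of those in the blood and heart pool (73.3% and 5.43% without thinning, median 3902 and 3462 UMIs), so few cells of the latter held a UMI. No class known to lack Nr4a1 was at hand to set a background for this share, since T cells of the CD45+ libraries had 134 CPM on day 7. The 16 immediate early and heat shock genes summed to 6140, 9587 and 11854 CPM in neutrophils of the CD45+ libraries, 20915, 17724 and 14152 in the heart pool and 4451 to 6100 in the blood and heart pool. The heart experiments used warm digestion and the blood and heart pool, which also holds heart cells, did not. Its hashtags have no tissue at hand, and the part of tissue and digestion was not tested. Nr4a1 in monocytes/macrophages was less separated, with 127, 114 and 198 CPM in the CD45+ libraries, 189, 184 and 173 in the heart pool and 70.1 to 216 (median 154) in the blood and heart pool.

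Monocytes of the blood and heart pool fell mainly into a cluster led by Cd300e, Eno3 and Ace, genes of nonclassical monocytes (838 cells), and one led by F13a1, Chil3 and Ccr2, genes of classical monocytes (1992 cells). Their median surface Ly6C was 33 and 194 antibody UMIs. Nr4a1 was 580 CPM in the first and 79.0 in the second, Klf4 741 and 174, Klf2 1237 and 589, Cebpb 2264 and 957, and Spi1 1048 and 625. Cebpd had the opposite order, 83.9 and 276 CPM, as did Maf with 13.4 and 52.5, while Irf8 was 262 and 277. The 9 genes were left out of the clustering, but the clusters come from the same cells, so these values are a description. A further cluster of 107 monocytes had median surface Ly6C of 57 and Ly6G of 23 antibody UMIs. It is not in these values but is in the split by Ly6C below. In Hashtag 6 it and the nonclassical cluster each made up 9.92% of monocytes.

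Surface protein gave a ranking that did not use RNA, but only among cells that RNA clusters had named monocytes. The clusters above differed in surface Ly6C, so the split is not a separate check of them. Within each of the 7 hashtags monocytes were ranked by Ly6C antibody UMIs and split into 3 equal parts, of which the lowest and the highest were compared. Nr4a1 in the Ly6C-low part was 260, 513, 451, 571, 610, 327 and 279 CPM in Hashtags 1 to 7, and in the Ly6C-high part 56.3, 78.8, 55.8, 69.5, 53.9, 49.5 and 124. The 2 ranges did not overlap, and the median ratio was 6.59. Klf4 was 268 to 783 CPM (median 600) against 102 to 191 (156), also without overlap. Klf2 was 506 to 1390 CPM (median 1156) against 355 to 696 (555), which overlapped between hashtags but was higher in the Ly6C-low part of 7 of 7. Cebpb (median 2124 against 866 CPM) and Spi1 (947 against 597) were higher in the Ly6C-low part in 7 of 7 hashtags, without overlap of the ranges. Cebpd was lower in the Ly6C-low part in 7 of 7 (median 115 against 301 CPM), Maf in 6 of 7 (21.3 against 45.04), and Irf8 had no uniform order (233 against 257, higher in 5 of 7). The Ly6C-low cells were shallower, with a median of 7358 UMIs against 15155. The 16 immediate early and heat shock genes were 1890 CPM in the Ly6C-low part and 1553 in the Ly6C-high part at the median, with a median of 1.29 for the ratio within a hashtag, and their part in the member differences was not tested.

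**Figure D4:**
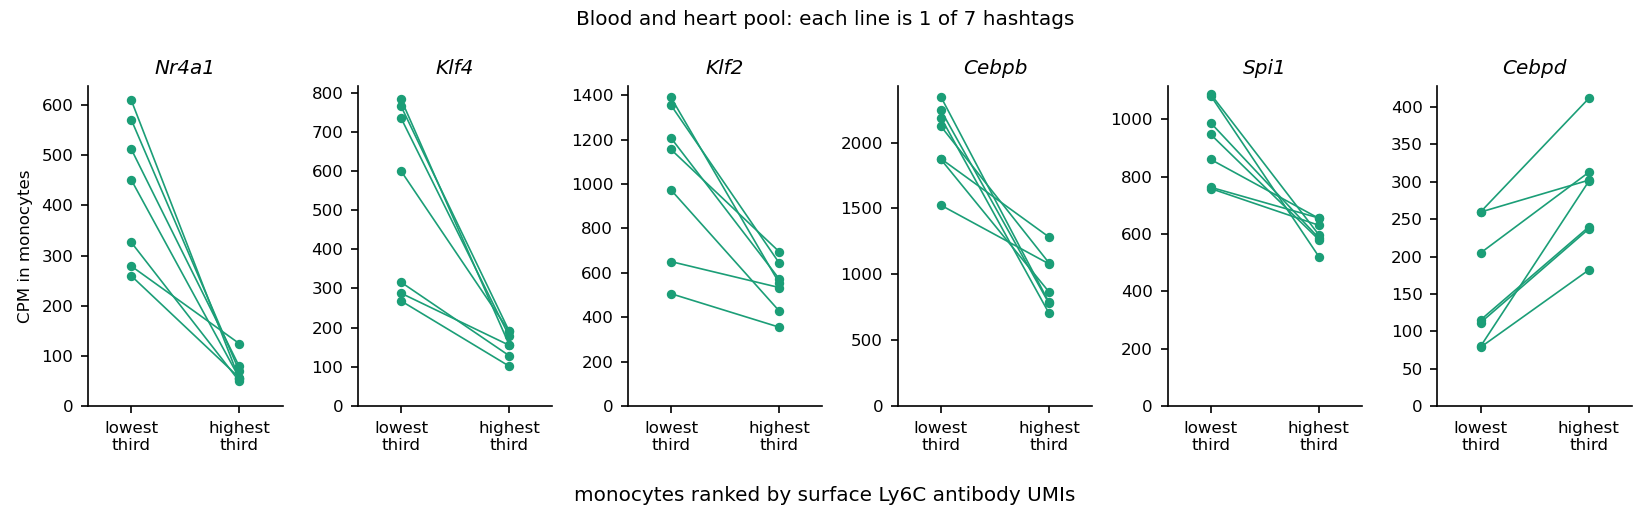
Level of 6 genes (CPM, axes from 0) in monocytes of the blood and heart pool with the lowest and the highest surface Ly6C (each 1 of 3 equal parts of a hashtag's monocytes); each line is 1 of 7 hashtags. Lines of Nr4a1, Klf4, Klf2, Cebpb and Spi1 go down from low to high Ly6C in 7 of 7 hashtags and lines of Cebpd go up in 7 of 7.

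In heart pool monocytes the same split gave weaker differences over its 3 days. Nr4a1 in the Ly6C-low part was 234, 209 and 304 CPM on days 1, 3 and 5 against 161, 227 and 215 in the Ly6C-high part, so day 3 had the opposite order. Klf4 was higher in the Ly6C-low part on 3 of 3 days (617, 477 and 498 against 339, 426 and 461 CPM), and Spi1 was lower on 3 of 3. Neutrophils of the blood and heart pool were split by surface CD62L (L-selectin), which neutrophils shed on activation and with age. Nr4a1 was higher in the CD62L-low part in 7 of 7 hashtags, with a median of 29.6 against 10.6 CPM, and Klf2 in 6 of 7 (1592 against 1182 CPM). The immediate early and heat shock sum was higher there too in 7 of 7 (5285 against 4384 CPM), and its part was not tested. The CD62L-low cells were shallower, with a median of 3127 UMIs against 3927.5. Split by surface CXCR4, Nr4a1 was higher in the low part in 2 of 7 hashtags and Klf2 in 3 of 7. Split by surface Ly6G, Nr4a1 was higher in the low part in 5 of 7 and Klf2 in 7 of 7.

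Day effects were fitted over all genes on the 6 sums of days 1, 3 and 5, with the experiment as a term. In neutrophils 7 of the 9 genes were tested (Irf8 was below the filter on low counts) and none passed. Over all 6183 genes 2.39% were called for day 3 against day 1, 7.28% for day 5 against day 1 and 0% for day 5 against day 3. The last was 0 genes by edgeR, with 128 at an unadjusted p under 0.05 and 1 gene called by DESeq2. The fitted log2 changes of the 7 ran from -1.52 to 0.04 for day 3 against day 1 (lowest adjusted p 0.192), from -1.18 to 0.71 for day 5 against day 1 (lowest 0.0867) and from -0.42 to 0.67 for day 5 against day 3. The gene nearest the threshold was Klf2 on day 5, at -1.16 (SE 0.40), and it passed only without the CD45+ day 1 sum (adjusted p = 0.0337). Scaling bears on these signs. With total counts in place of TMM (trimmed mean of M-values) factors the median of all genes in neutrophils shifted by 0.67, 0.92 and 0.26 in the 3 contrasts, and 4, 4 and 2 of the 7 genes changed sign, Klf2 on day 5 going to -0.14. Spi1, whose CPM were higher on day 5 than on day 1 in both experiments, had a fitted log2 change of -0.44 (SE 0.39) with TMM.

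In monocytes/macrophages 8 genes were tested. Cebpe was the 1 called for day 3 against day 1, where 0.906% of all 10597 genes were, and Cebpe and Cebpb were the 2 called for day 5 against day 1, where 10.6% were. None was called for day 5 against day 3, where 0.0283% were (3 genes). Cebpb fell from day 1 to day 5 by 0.71 on the log2 scale (SE 0.15, adjusted p = 0.0390), in 2 of 2 experiments (-0.66 in the CD45+ libraries and -0.75 in the heart pool). With total counts the median of all genes shifted here by 0.22, 0.24 and 0.02 in the 3 contrasts, and 1, 1 and 0 of the 8 genes changed sign. The Cebpb call was lost without the day 3 or the day 5 sum of either experiment (adjusted p = 0.116 to 0.191) and with total counts (-0.46, adjusted p = 0.0998). The 6 genes that did not pass on day 5 had log2 changes from -0.03 to 0.81. None of the 8 genes tested had a day effect that passed as different between neutrophils and monocytes/macrophages. The lowest adjusted p was 0.110 for Klf2 on day 5 (log2 difference -1.29, SE 0.35), and 0.0197% and 0.768% of 10151 genes passed on days 3 and 5. In DESeq2 the Klf2 difference passed (-1.41, adjusted p = 1.3e-08). The Cebpe difference on day 5 (2.28, SE 0.68, adjusted p = 0.135) passed with total counts (0.0302), with no filter (0.0265) and without the CD45+ day 1 sum of monocytes/macrophages (0.0344).

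**Figure D5:**
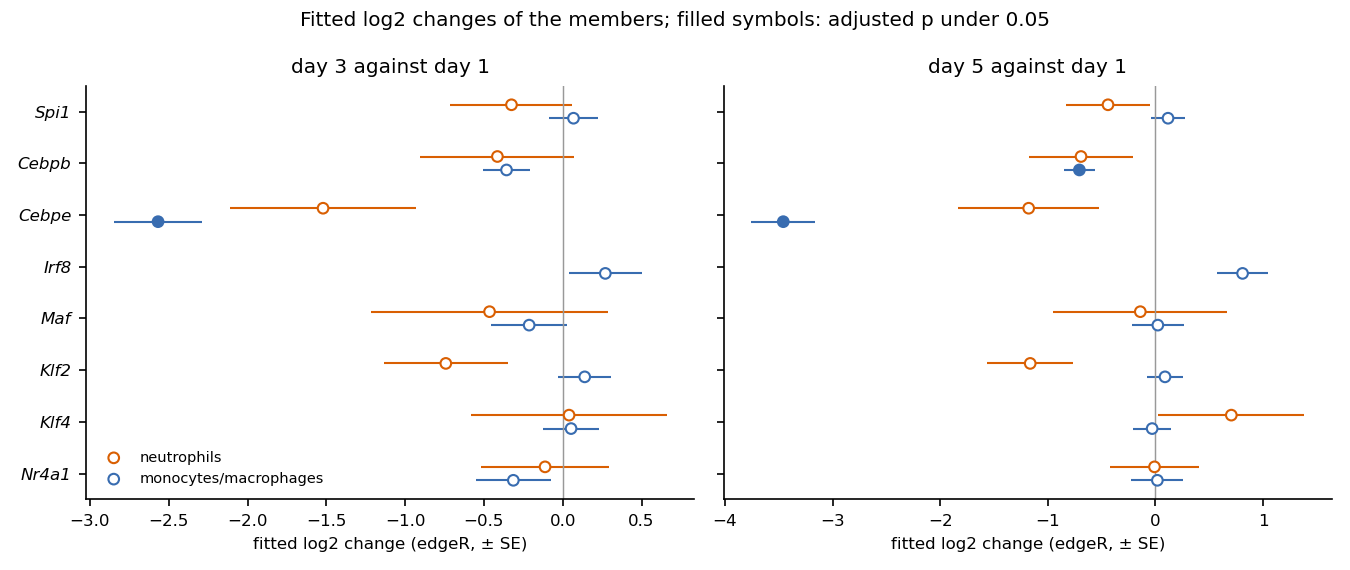
Fitted log2 change (edgeR, with its SE) of the tested genes in neutrophils (orange) and monocytes/macrophages (blue), for day 3 and day 5 against day 1; filled symbols passed an adjusted p of 0.05. Cebpe is filled in both panels at -2.57 and -3.46 and Cebpb on day 5 at -0.71. With total counts as scaling, 4 of 7 neutrophil values change sign in each panel and 1 of 8 monocyte/macrophage values does.

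Other transcription factors of the lineage were read from the same fits. Of 58 listed, 47 were tested in neutrophils. Over all genes, 0.534% were called higher and 1.86% lower on day 3, and 1.94% higher and 5.34% lower on day 5. Nfe2, a factor of platelet and granulocyte precursors, fell from day 1 to day 3 by 2.44 (SE 0.49, adjusted p = 0.0146), the 1 called of 47. On day 5, 1 rose and 5 fell, among them Nr4a2, the relative of Nr4a1, at 2.07 (SE 0.54, adjusted p = 0.0305), Nfe2 at -2.57 (SE 0.56) and Id2 at -1.87 (SE 0.47). The median of the 47 was -0.69 against -0.03 over all genes. In monocytes/macrophages 0 of 55 were called on day 3, and 2 rose and 8 fell on day 5, led by Bhlhe41 at 3.88 (SE 0.57, adjusted p = 0.0173), Nfe2 at -2.22 (SE 0.49) and Hif1a, the hypoxia factor, at -1.64 (SE 0.23). The median was -0.13 against -0.01 over all genes. There 0.236% of all genes were called higher and 0.67% lower on day 3, and 4.63% higher and 5.97% lower on day 5.

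Known targets and cell states of the 9 genes were counted in the same fits. In neutrophils 1.86% of all genes were called lower on day 3 and 5.34% on day 5, and in monocytes/macrophages 0.67% and 5.97%. Called higher were 0.534% and 1.94% in neutrophils, and 0.236% and 4.63% in monocytes/macrophages. Specific granule genes, which need C/EBPε in developing neutrophils, fell in neutrophils in 4 of 8 tested on day 3 and 6 of 8 on day 5, with Cd177 at -5.06 and -5.20 (SE 0.52 and 0.56), Lcn2 at -4.03 (SE 0.79) and Ceacam10 at -3.55 (SE 0.52) on day 3, and Ngp at -9.85 (SE 2.38) and Camp at -8.54 (SE 2.36) on day 5. The medians of the 8 were -3.60 and -4.23 against 0.01 and -0.03 over all genes, while Cebpe itself did not pass in neutrophils (-1.52 and -1.18). Neutrophils too were in different clusters by day, with 97.7% in the Ngp and Camp cluster on day 1 and 2.22% on day 3 in the CD45+ libraries, and 90.6% in the cluster led by Retnlg and Lcn2 on day 1 and 23.3% on day 3 in the heart pool. In monocytes/macrophages 0 of 6 granule genes were called on day 3 and 4 of 6 fell on day 5, led by Lcn2 at -6.78 (SE 1.42) and Ngp at -5.99 (SE 1.07), beside the neutrophil markers given above. Of 12 genes of resident-type macrophages, 1 fell on day 3 and 4 rose and 2 fell on day 5. The complement genes C1qa and C1qc were higher on day 5 by 2.69 (SE 0.34) and 2.64 (SE 0.32), and Cd163, a haemoglobin scavenger receptor, fell by 4.03 (SE 0.29). Maf did not pass there. Of 10 genes of nonclassical monocytes, 1 rose on day 5, the fractalkine receptor gene Cx3cr1 at 1.97 (SE 0.27), and 0 were called on day 3. Of 7 tested genes of type 1 dendritic cells, Cadm1, an adhesion molecule gene, rose by 4.49 (SE 0.85) and Id2, an inhibitor of helix-loop-helix factors, fell by 0.93 (SE 0.17) on day 5. With at most 1 call in each direction, neither this list nor that of nonclassical monocytes is read as standing out from all genes. Of 16 immediate early and heat shock genes, Ier3 and Egr1 fell in neutrophils on day 5 (-2.03 and -1.52, SE 0.44 and 0.45). In monocytes/macrophages Ier3 fell on day 3 and day 5 (-1.18 and -1.90, SE 0.15 for each), Atf3 rose (1.08, SE 0.21) and Hsp90aa1 fell (-0.73, SE 0.16) on day 5. No listed gene was called for day 5 against day 3 in either class. Of all genes, 0% were called there in neutrophils and 0.0283% in monocytes/macrophages.

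The genes with the most similar profile were found by Pearson correlation of log2(CPM + 1) over 43 sums of the 4 classes (30 for Cebpd), which share libraries, depth and classes. Cd93 was among those nearest Maf (r = 0.901). Arhgap9 (0.966) was nearest Spi1, Gpr84 (0.900) nearest Cebpb and Ripor2 (0.981) nearest Cebpd. Slfn4 (0.870) and Slpi (0.869) were nearest Cebpe, Nt5c (0.959) and Crip1 (0.959) nearest Irf8. Tsc22d3 (0.836) was among those nearest Klf2, Dusp3 (0.957) nearest Klf4, and Dusp2 (0.865) and Icam1 (0.816) nearest Nr4a1. These are descriptions over sums of 3 experiments.

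In the GENCODE annotation (GRCm38), Spi1 lies at chr2:91082390-91115756 on the plus strand and Cebpb at chr2:167688915-167690418 on the plus strand of the same chromosome. Klf2 (chr8:72319033-72321656, plus), Maf (chr8:115682942-115707794, minus) and Irf8 (chr8:120736358-120756694, plus) share chromosome 8. Klf4 lies at chr4:55527143-55532466 (minus), Cebpe at chr14:54710360-54712174 (minus), Nr4a1 at chr15:101254269-101274795 (plus) and Cebpd at chr16:15887286-15891031 (plus).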

How the data were processed

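The authors deposited whole-number UMI counts for each gene and barcode, without normalization. Cell Ranger 3.0.2 made the counts of both pools per the file headers. The counting tool of the CD45+ libraries is not given in the sources used here. The 9 genes and the gene lists were chosen with earlier results of these data known.

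Barcodes were kept from 200 genes upward and with no more than 10% of UMIs from mitochondrial genes. A mixture of 2 Gaussians on log antibody counts called each hashtag, and barcodes with 1 hashtag were used (several were called in 311 barcodes of heart only and 1430 of blood and heart). Scrublet marked 18 barcodes of the CD45+ libraries, which were removed; it marked so few that doublets of the same library remain. Cells were clustered in scanpy 1.11.5 (2000 variable genes, 30 components, 15 neighbours, Leiden resolution 0.5, seed 0), leaving out the 9 genes. Of a cluster's 10 leading genes, the class contributing most markers gave the name, provided at least 3 of its markers were raised 1.5 times and found in at least 20% of the cells. Where none was among the 10, the class needed 2 times as many raised markers as the next. The leading genes were ranked with 0.05 UMIs per 10000 added, an amount chosen after the clusters were seen. With 1 added, the cluster that held 233 of the 246 CD45+ day 1 monocytes/macrophages has no name.

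Counts were summed per class, day and experiment (at least 30 cells) over 27514 shared genes and fitted in edgeR 4.0.16 (R 4.3.3; filterByExpr, TMM, two-sided quasi-likelihood test, experiment as a term, Benjamini-Hochberg threshold 0.05), tested on simulated data. DESeq2 1.42.0 was an alternative. Steady state, day 7 and the 7 unmapped hashtags entered no test. All 9 genes are named. From the lists, up to 3 called genes of the largest change are named per class and contrast, and for each gene the 3 most alike of at least 50 CPM were found, of which some are not reported here. Intervals are 95% and cover counting error only.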

Additional observations from a re-analysis of the deposited data

How the results depend on the processing

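The 9 fitted log2 changes of Cebpe, Cebpb, Irf8 and Klf2 that were refitted kept their sign in every setting run (134 values, of which 10 passed the threshold where the reported fit did not, and 11 the reverse). They include the called changes and those nearest the threshold, so they do not stand for all 9 genes. With total counts 4, 4 and 2 of the 7 genes tested in neutrophils changed sign in the 3 contrasts, as given above. Leaving out 1 sum in turn gave -2.74 to -2.25 for Cebpe on day 3 and -3.59 to -3.12 on day 5, -0.73 to -0.60 for Cebpb on day 5, 0.56 to 1.18 for Irf8 on day 5 and -1.23 to -1.08 for Klf2 in neutrophils on day 5. The Cebpe changes in monocytes/macrophages rest on 15 to 109 UMIs per sum, and neutrophil sums held as few as 2.

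The number of genes called over the whole table moved far more. Genes called in neutrophils for day 3 against day 1 (148) were 462 with total counts, 317 with no filter and 56 to 697 without 1 sum. For day 5 against day 1 (450) they were 1239 with total counts and 20 to 992 without 1 sum, and for day 5 against day 3 (0) 1 in DESeq2, 11 with no filter and 0 to 31 without 1 sum. In monocytes/macrophages for day 3 against day 1 (96) they were 516 in DESeq2, 6 with total counts, 577 with no filter, 21 at Leiden resolution 1, 443 in macrophage clusters only and 0 to 2638 without 1 sum. For day 5 against day 1 (1124) they were 1759 with no filter and 303 to 3531 without 1 sum, and for day 5 against day 3 (3) 111 in DESeq2, 88 with no filter, 0 at Leiden resolution 1, 0 with classes from each cell's own markers and 0 to 1213 without 1 sum. The difference between the classes (2 on day 3 and 78 on day 5) gave 206 and 566 in DESeq2, 1 and 747 with total counts, 169 and 430 with no filter, 0 and 51 in macrophage clusters only, 1 on day 3 at Leiden resolution 1, and 0 to 278 and 0 to 602 without 1 sum. With no experiment block every count was 0 and Cebpe on day 5 had an adjusted p of 0.151; the cause was not tested. Of called genes, 22.3% and 26.7% were higher in neutrophils on days 3 and 5 with TMM and 88.3% and 92.6% with total counts, and in monocytes/macrophages 26.04% and 43.7% against 16.7% and 65.2%. Fits of monocyte clusters only (10 monocytes on CD45+ day 1), of neutrophils with classes from each cell's own markers (24 cells on CD45+ day 5) and of the class differences that need these were not run. Levels of the 9 genes moved beyond their counting interval in 242 of 713 values and shares of cells in 90 of 95.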

Other observations

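In the blood and heart pool, whose 7 hashtags have no condition at hand, Hashtags 6 and 7 stood apart from Hashtags 1 to 5 for several of the 9 genes. Cebpb in neutrophils was 681, 574, 598, 576 and 716 CPM in Hashtags 1 to 5 and 1591 and 1507 in Hashtags 6 and 7. The neutrophil cluster led by Cxcl2 and Cxcl3 made up 43.3% and 60.6% of the neutrophils of Hashtags 6 and 7 and 0.352% to 0.932% of those of Hashtags 1 to 5. Klf2 in neutrophils was 1489, 1456, 1383, 1377 and 1322 CPM and then 1129 and 710, and in monocytes/macrophages 538, 870, 796, 745 and 778 and then 288 and 265. Macrophages made up 52.7% and 60.1% of that merged class in Hashtags 6 and 7, and 4.44% to 9.43% in Hashtags 1 to 5. Klf2 in this pool was 82.2 to 478 CPM in macrophage sums and 433 to 889 in monocyte sums. The part of this make-up in the Klf2 values was not tested. Maf in macrophages was 75.7, 18.5 and 110 CPM in Hashtags 1, 3 and 4, which had enough macrophages, and 212 and 302 in Hashtags 6 and 7. The latter held 146 and 187 macrophages, against 32 to 62. These are values of unassigned samples, with no test.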
